A study of Saccharomyces cerevisiae with 13 samples.

Results

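The comparison set yeast treated with TFM for 2 h against yeast given isopropanol for 1, 2 or 4 h. The 7 arrays, out of 13 in the series, were chosen by their labels alone: 2 arrays of cells treated with 0.05 mM TFM for 2 h, and 5 arrays of cells given 2% isopropanol, of which 2 were taken at 1 h, 1 at 2 h and 2 at 4 h. The isopropanol arrays were pooled because the time-matched control was a single array, the RNA of the other 2 h sample having been of poor quality according to the series design. Each result was also set against that single isopropanol 2 h array. All cells were BY4741, a haploid MATa laboratory strain with mutations in HIS3, LEU2, MET15 (MET17) and URA3, grown at 30°C to saturation in YPGE, a rich medium whose carbon sources, glycerol and ethanol, cannot be fermented. For the TFM arrays the labels state no isopropanol content, so an effect of TFM and an effect of any difference in isopropanol cannot be told apart. The RNA samples are described as independent, without a word on separate cultures, so p-values reflect the spread of these samples alone, and that spread may be technical.

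TFM (3-trifluoromethyl-4-nitrophenol) is a phenol used to kill larval sea lamprey. It carries protons across the inner mitochondrial membrane, so that respiration runs without making ATP, and cells that live on glycerol and ethanol depend on respiration for ATP. Yeast turns its glucose uptake genes on and off through a pathway that begins with the membrane sensors Snf3 and Rgt2. In cells without glucose the repressor Rgt1, with its partners Mth1 and Std1, keeps the HXT hexose transporter genes silent. The zinc-finger repressors Mig1, Mig2 and Mig3 silence genes for other carbon sources when glucose is present. The factors Pdr1 and Pdr3 turn on membrane pumps that expel foreign compounds, and War1 and Haa1 respond to weak acids.

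Levels are given as log2 RMA signals, and 1 unit is a 2-fold difference within a gene. Levels of different genes are not comparable, because each probe set has its own affinity. A difference is the mean of the 2 TFM arrays minus the mean of the 5 isopropanol arrays, ± its standard error in limma, with an adjusted p (Benjamini-Hochberg over 5449 genes) under 0.05 taken as a call. Because each array was normalized to the same distribution, every difference is relative to the other transcripts of the array. RNA came from whole cultures, so fewer cells expressing a gene and less RNA per cell cannot be told apart.

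The array medians lay between 11.34 and 11.40, and the unspiked control probe sets set a background of 5.94. Of the replicate pairs, the TFM 2 h arrays differed most, with a standard deviation of the difference across genes of 0.239, against 0.105 to 0.221 in the other 5 groups that had 2 arrays. The mean 3′ minus 5′ signal of 7 control transcripts, which rises as RNA degrades, was 1.18 and 1.49 on the TFM 2 h arrays, against 1.42 and 1.34 in isopropanol at 1 h, 1.14 at 2 h, and 1.15 and 1.13 at 4 h. Among the isopropanol arrays, an F test over the 3 times called 0 of 5449 genes (limma, smallest adjusted p = 0.465), while 412 had an unadjusted p under 0.05. With 2, 1 and 2 arrays this does not show that the times were alike.

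The mating type and strain markers fitted BY4741 in part. URA3 stood at 4.94 and 4.96 on the TFM arrays and MET17 at 5.70 and 5.28, and LEU2 at 6.15 and 5.41, against isopropanol values of 4.77 to 5.04, 5.47 to 5.80 and 5.42 to 5.88 for the same genes, near the background. HIS3 was well above background at 11.38 and 11.27 in TFM and 11.37 to 11.61 in isopropanol. The his3 mutation of this strain removes part of the gene, and where in the gene the probe set lies was not looked up here. Median isopropanol levels were 12.68 for the 7 a-specific genes measured and 8.47 for the 4 alpha-specific genes. Of the a-specific genes 0 were called higher and 1 lower, and of the alpha-specific genes 1 was higher and 2 lower. The a-specific receptor gene STE2 stood at 12.89 and 12.67 in TFM and 12.85 to 13.10 in isopropanol, well above background. Of the alpha-specific genes, MF(ALPHA)1, the alpha-factor gene, was low at 7.14 and 6.81 and 7.27 to 8.27, but SAG1, the alpha-agglutinin gene, stood at 12.22 and 12.23 in TFM and 11.53 to 11.79 in isopropanol. SAG1 was called higher in TFM (0.54 ± 0.0712, adjusted p = 0.000373), whereas MF(ALPHA)1 (-0.78 ± 0.23, adjusted p = 0.0227) and ASG7, an a-specific gene (-0.82 ± 0.12, adjusted p = 0.000636), were lower.

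TFM for 2 h went with a small group of strongly raised transcripts and with slight shifts in many others. The isomaltase gene IMA5 led the group, which included some hexose transporters and glucose-responsive regulators. In limma 831 genes were higher and 810 lower in TFM than in pooled isopropanol, or 30.1% of the 5449 genes. By direction, 15.3% of all genes were higher and 14.9% lower, and the list counts below are to be read beside these shares. Most differences were small: 655 of the higher and 657 of the lower genes differed by less than 0.5, and the median size of a called difference was 0.346. A change of 2-fold or more was reached by 25 genes that rose and 7 that fell. Both TFM arrays lay beyond all 5 isopropanol arrays for 1571 of the 1641 called genes, beside 41.7% of all genes, called or not. The number of calls depended on the TFM arrays: 558 genes were higher and 583 lower without TFM 2 h replicate 1, and 410 and 373 without replicate 2. Of the 1641 called genes, 516 were called whichever of the 7 arrays was left out, and all 32 of the 2-fold changed genes were among them.

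**Figure D1:**
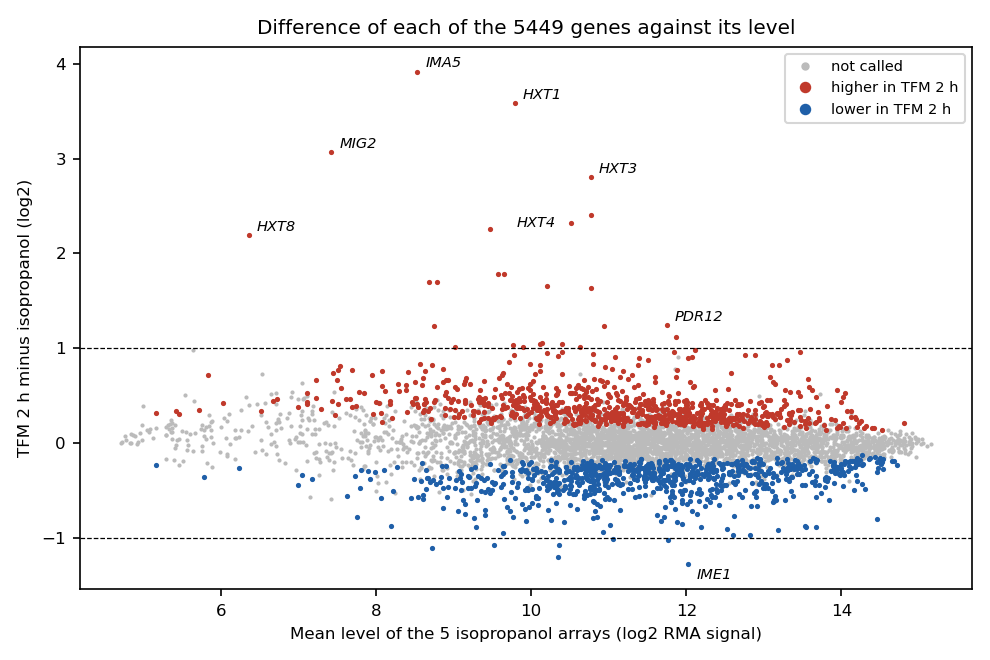
Difference between TFM 2 h and pooled isopropanol (log2, vertical) for each of the 5449 genes against its mean level in the 5 isopropanol arrays (log2 RMA signal, horizontal), with called genes in red (831 higher) and blue (810 lower) and dashed lines at 2-fold. The highest points are IMA5 at 3.92 and HXT1 at 3.59, and the lowest point is IME1 at -1.28.

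Against the single isopropanol 2 h array, 452 genes were higher and 318 lower, or 14.1% of genes (8.3% higher and 5.84% lower). The median standard error was 0.117 in that comparison and 0.0841 against the pooled arrays. All 1641 genes called against the pooled arrays had a difference of the same sign against the single array, and 1632 had both TFM arrays beyond it. The single array is itself 1 of the pooled 5 and the TFM arrays are the same, so the 2 comparisons are not independent. Of the 32 genes changed at least 2-fold, 31 were also called against the single array. The exception was YLR297W, a gene of unknown function, at 0.94 ± 0.29 (adjusted p = 0.0575).

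**Figure D2:**
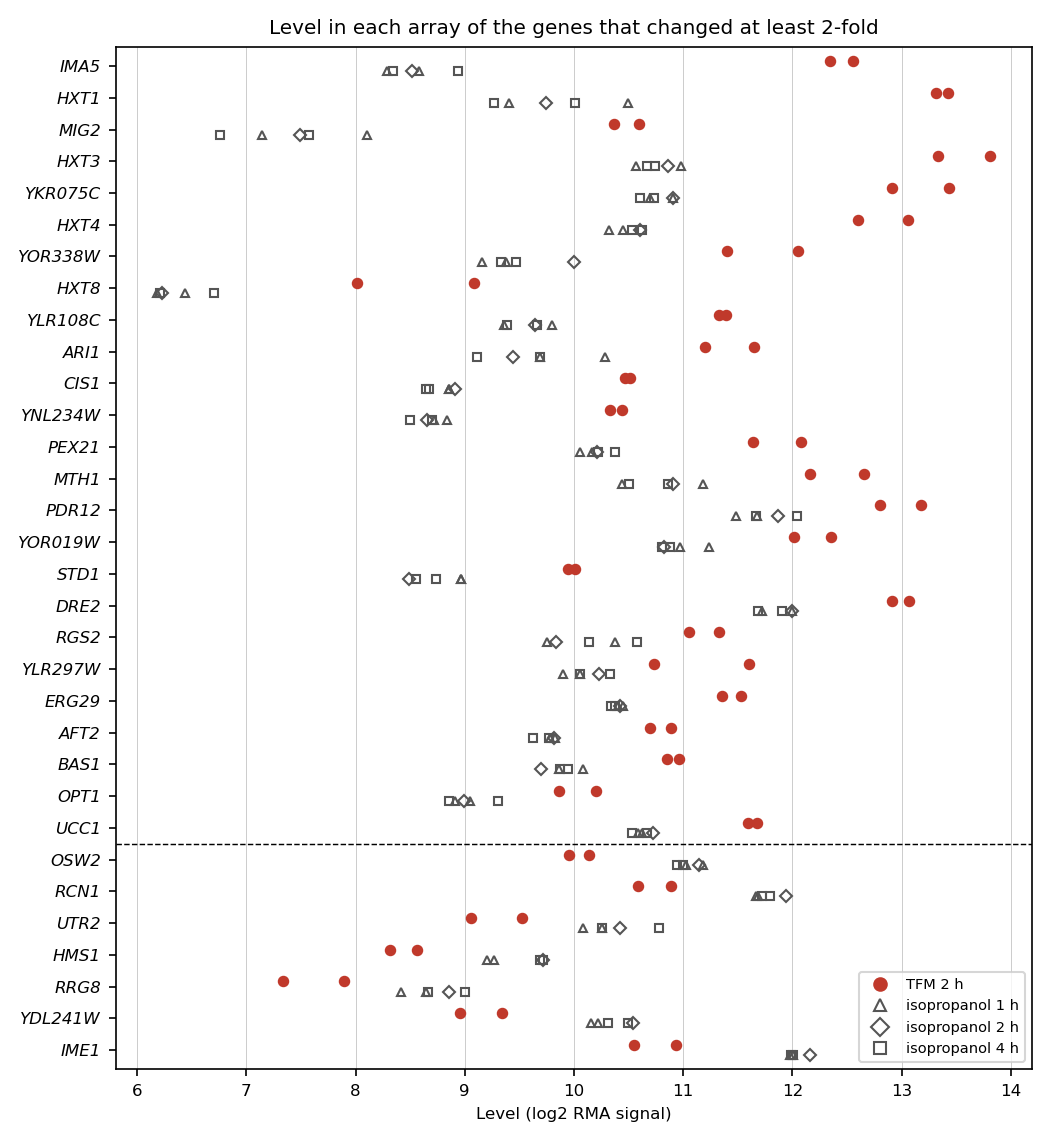
Level of each of the 32 genes changed at least 2-fold (log2 RMA signal, horizontal) in the 2 TFM 2 h arrays (red circles, upper row of each gene) and the 5 isopropanol arrays (open symbols by time, lower row), with the 25 genes that rose above the dashed line and the 7 that fell below it. In each of the 32 genes both red circles lie outside the span of the open symbols. HXT8 has the TFM arrays far apart, at 9.09 and 8.01.

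Some of the hexose transporter genes rose, and those that rose most are ones that yeast normally turns on when glucose is available. Of the 15 measured hexose transporter genes 6 were higher and 0 lower, with a list median of 0.20 (all genes: 0.003). That median rested on single arrays: it was 0.058 without TFM 2 h replicate 2 and 0.336 without replicate 1. With the dimmest 25% of probe sets left out, which kept 6 of the 15, it was 1.62. The counts held more closely, at 5 to 7 higher and 0 lower without either TFM array or against the single array, and at 6 and 1 without the isopropanol 2 h array. HXT1, the low-affinity glucose transporter, stood at 13.31 and 13.43 in TFM, against 10.49 and 9.41 in isopropanol at 1 h, 9.74 at 2 h and 9.27 and 10.01 at 4 h. The TFM arrays lay far above the highest isopropanol array, and the difference of 3.59 ± 0.25 (adjusted p = 6.73e-06) corresponds to 12-fold. HXT3, also a low-affinity transporter, read 13.81 and 13.34 in TFM, against 10.98 and 10.57 in isopropanol at 1 h, 10.87 at 2 h and 10.67 and 10.74 at 4 h (2.81 ± 0.14, adjusted p = 5.66e-07). HXT4, of higher affinity, read 13.06 and 12.60, against 10.45 and 10.32 in isopropanol at 1 h, 10.61 at 2 h and 10.54 and 10.62 at 4 h (2.32 ± 0.17, adjusted p = 9.92e-06). For both genes the isopropanol arrays kept within a narrow band and both TFM arrays were clear of it. HXT2, a high-affinity transporter, rose less, reading 13.80 and 13.84 in TFM, against 12.55 and 12.90 in isopropanol at 1 h, 13.08 at 2 h and 12.84 and 13.08 at 4 h (0.93 ± 0.14, adjusted p = 0.00104).

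HXT8 was close to background in isopropanol and is the called transporter whose TFM arrays lay furthest apart. It read 9.09 and 8.01 in TFM, against 6.18 and 6.44 in isopropanol at 1 h, 6.23 at 2 h and 6.21 and 6.70 at 4 h, a difference of 2.20 ± 0.25 (adjusted p = 0.00016) with no overlap. HXT7 rose by 0.27 ± 0.0558 (adjusted p = 0.0047), on a probe set whose name marks it as shared between related transcripts, and HXT6 is a near-identical copy. Against the single array its 0.24 ± 0.0859 did not pass (adjusted p = 0.0957). The other 9 transporters were not called, and these include HXT5, the transporter of starved and slow-growing cells, at 0.20 (adjusted p = 0.222), and GAL2, the galactose permease, at -0.11 (adjusted p = 0.448). Their differences ran between -0.26 for HXT10 and 0.53 for HXT14, whose 2 TFM arrays read 6.41 and 8.06.

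Among the genes that sense glucose or carry out its repression, 8 of 24 were higher and 7 lower, with a median of 0.06. The members that rose most are repressors. MIG2 read 10.60 and 10.37 in TFM, against 8.10 and 7.14 in isopropanol at 1 h, 7.49 at 2 h and 6.76 and 7.58 at 4 h, and rose by 3.07 ± 0.26 (adjusted p = 2.25e-05), or 8.38-fold. MIG3 and MIG1, of the same zinc-finger family, rose by 0.95 ± 0.0861 (adjusted p = 3.6e-05) and 0.91 ± 0.0913 (adjusted p = 6.86e-05). MTH1 read 12.66 and 12.16 in TFM, against 11.18 and 10.44 in isopropanol at 1 h, 10.91 at 2 h and 10.86 and 10.50 at 4 h (1.63 ± 0.19, adjusted p = 0.000173), and its paralog STD1 read 10.01 and 9.95, against 8.97 and 8.97 in isopropanol at 1 h, 8.49 at 2 h and 8.55 and 8.73 at 4 h (1.24 ± 0.13, adjusted p = 8.47e-05). Both Rgt1 partner genes were thus higher in each TFM array than in any isopropanol array. RGT1 itself rose by 0.27 ± 0.0675 (adjusted p = 0.0125), though against the single array its 0.30 ± 0.10 did not pass (adjusted p = 0.0759). Of the sensors, SNF3 was higher by 0.65 ± 0.0704 (adjusted p = 0.000122), and RGT2 was not called at 0.01 (adjusted p = 0.938).

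On the falling side of this list, NRG2 and NRG1, repressors of glucose-repressed genes that act under the Snf1 kinase, stood lower. NRG2 read 11.26 and 11.34 in TFM, against 12.18 and 12.19 in isopropanol at 1 h, 12.32 at 2 h and 12.01 and 12.23 at 4 h, and fell by 0.89 ± 0.11 (adjusted p = 0.000208). NRG1 differed by -0.57 ± 0.15 (adjusted p = 0.013), and by -0.66 ± 0.23 against the single array, where it did not pass (adjusted p = 0.0823). SNF4, the gamma subunit of the Snf1 kinase, and GAL83, one of its beta subunits, differed by -0.32 ± 0.0848 and -0.28 ± 0.0623 (adjusted p = 0.0157 and 0.00708), while SNF1 was not called at -0.16 (adjusted p = 0.0556). The glucose list had 8 higher and 3 lower members without TFM 2 h replicate 1, and both without replicate 2 and against the single array it had 6 and 4.

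IMA5, an isomaltase that splits disaccharides into glucose, had the largest difference of all 5449 genes. It read 12.56 and 12.34 in TFM, against 8.28 and 8.58 in isopropanol at 1 h, 8.52 at 2 h and 8.34 and 8.94 at 4 h. The gap between the groups was several times the spread within either, and the difference was 3.92 ± 0.15 (adjusted p = 1.11e-07), or 15.1-fold. IMA5 and HXT8 are neighbours in the RefSeq R64 gene table, and the neighbour of IMA5 on the other side, REE1, was lower by 0.33 ± 0.0817 (adjusted p = 0.0117). Around the 32 genes changed at least 2-fold, 56 different neighbouring genes were measured, in 57 pairs of gene and neighbour. The neighbour was called in the same direction in 15 pairs and in the other in 9. Of all genes, 30.1% were called either way. The 15 include IMA5 and HXT8, each as the neighbour of the other. Of the 10 genes of disaccharide use 6 were higher and 2 lower, with a median of 0.39. SUC2, the invertase gene, rose by 0.54 ± 0.11 (adjusted p = 0.00391) and MAL31, a maltose permease gene, by 0.56 ± 0.0911 (adjusted p = 0.00132). IMA3 rose by 0.80 ± 0.16 (adjusted p = 0.00381), on a shared probe set, and IMA4 is a copy of the same gene. IMA1 was lower by 0.51 ± 0.12 (adjusted p = 0.00817). The disaccharide list had 6 higher and 0 lower without TFM 2 h replicate 2, and against the single array 4 and 1.

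Of the other strongly raised genes, several have no settled function. YKR075C read 13.43 and 12.91 in TFM, against 10.91 and 10.70 in isopropanol at 1 h, 10.90 at 2 h and 10.73 and 10.60 at 4 h, and rose by 2.40 ± 0.13 (adjusted p = 6.06e-07). YOR338W read 12.05 and 11.40, against 9.16 and 9.38 in isopropanol at 1 h, 9.997 at 2 h and 9.34 and 9.47 at 4 h, and rose by 2.26 ± 0.21 (adjusted p = 4.65e-05). The isopropanol 2 h array was the highest of the 5 for this gene, so against it alone the difference was 1.73 ± 0.24 (adjusted p = 0.00313). YLR108C and YNL234W, a globin-like gene, rose by 1.79 ± 0.14 and 1.70 ± 0.0899 (adjusted p = 1.57e-05 and 6.06e-07). ARI1, an aldehyde reductase, read 11.20 and 11.65 in TFM, against 10.29 and 9.69 in isopropanol at 1 h, 9.45 at 2 h and 9.11 and 9.69 at 4 h (1.78 ± 0.24, adjusted p = 0.000405). Its isopropanol arrays were spread over more than 1 unit, and both TFM arrays were above the highest of them. RGS2, which dampens the signal from the glucose receptor Gpr1 to cAMP, rose by 1.05 ± 0.19 (adjusted p = 0.00217), and GPR1 was not called at 0.12 (adjusted p = 0.307). YOR019W rose by 1.24 ± 0.11 (adjusted p = 4.21e-05). OPT1, an oligopeptide and glutathione transporter, rose by 1.01 ± 0.12 (adjusted p = 0.000219).

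Genes for multidrug export stood higher. In the list of genes under Pdr1 and Pdr3, 12 of 24 were higher and 2 lower, with a median of 0.25 (against the single array 10 and 2, median 0.29, and without TFM 2 h replicate 2 10 and 1). CIS1, a small Pdr1 target of unknown function, read 10.47 and 10.51 in TFM, against 8.85 and 8.86 in isopropanol at 1 h, 8.91 at 2 h and 8.64 and 8.67 at 4 h, and rose by 1.70 ± 0.0865 (adjusted p = 6.06e-07). SNQ2 and PDR5, pumps of broad range, rose by 0.67 ± 0.0698 and 0.49 ± 0.0569 (adjusted p = 9.18e-05 and 0.00018). The pump genes PDR10, PDR15 and YOR1 rose by 0.69 ± 0.11, 0.62 ± 0.0743 and 0.57 ± 0.0822 (adjusted p = 0.00132, 0.000208 and 0.000631). RSB1, a gene of resistance to sphingoid bases, rose by 0.67 ± 0.0911 (adjusted p = 0.000452). The genes of the regulators were called too, PDR3 at 0.53 ± 0.0746 and PDR1 at 0.26 ± 0.0765 (adjusted p = 0.000572 and 0.0261). RTA1, a membrane protein, and QDR2, a multidrug transporter, were lower by 0.80 ± 0.14 and 0.49 ± 0.14 (adjusted p = 0.00194 and 0.0206).

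Of the 15 weak acid response genes 5 were higher and 0 lower, with a median of 0.205, and 2 and 0 passed against the single array. Leaving out TFM 2 h replicate 1 gave 3 and 0, with a median of 0.13. PDR12, the pump that expels weak organic acids, read 13.18 and 12.81 in TFM, against 11.67 and 11.48 in isopropanol at 1 h, 11.87 at 2 h and 11.67 and 12.04 at 4 h, and rose by 1.24 ± 0.16 (adjusted p = 0.000318). TPO1, a polyamine exporter, is in both lists and rose by 0.77 ± 0.0929 (adjusted p = 0.000213). At the other TFM times, given here with no test, PDR12 read 12.13 and 12.63 at 1 h and 11.62 and 11.75 at 4 h, so its 4 h level lay within the isopropanol range. CIS1 read 9.63 and 9.43 at 1 h and 11.13 and 11.27 at 4 h, both beyond its isopropanol arrays, and highest at 4 h.

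Peroxisomal genes were more often higher than lower. Peroxisomes are where yeast breaks down fatty acids. Of 22 genes of peroxisomal beta-oxidation 9 were higher and 2 lower, with a median of 0.20, and of 28 genes of peroxisome formation 10 were higher and 1 lower, with a median of 0.17. POT1, the thiolase of the last step, read 13.59 and 13.78 in TFM, against 13.02 and 13.08 in isopropanol at 1 h, 12.68 at 2 h and 12.47 and 12.53 at 4 h (0.93 ± 0.15, adjusted p = 0.00146). LPX1, a peroxisomal lipase, rose by 0.82 ± 0.0685 (adjusted p = 2.25e-05), and CTA1, the peroxisomal catalase, by 0.46 ± 0.0659 (adjusted p = 0.000631). FOX2, POX1 and FAA2, which act earlier in the pathway, rose by 0.33, 0.31 and 0.43 (adjusted p = 0.0021, 0.0182 and 0.002). YAT2, a carnitine acetyltransferase, and PCD1, a peroxisomal hydrolase, were lower by 0.54 ± 0.11 and 0.58 ± 0.11 (adjusted p = 0.00443 and 0.00265).

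PEX21 led the peroxisome formation list. It encodes a partner of the import receptor Pex7, and read 12.08 and 11.64 in TFM, against 10.06 and 10.16 in isopropanol at 1 h, 10.21 at 2 h and 10.22 and 10.37 at 4 h (1.65 ± 0.11, adjusted p = 4.3e-06). Its paralog PEX18 rose by 0.74 ± 0.13 (adjusted p = 0.00208) and PEX6, an ATPase that recycles receptors, by 0.61 ± 0.0801 (adjusted p = 0.000368). PEX7 itself was at 0.19 ± 0.0519 (adjusted p = 0.0181). The count of the formation list was 4 higher and 0 lower against the single array, and likewise 4 and 0 without TFM 2 h replicate 2. The formation median was then 0.088. That of beta-oxidation was 7 and 1 against the single array, and 7 and 2 with a median of 0.093 without TFM 2 h replicate 2.

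The genes that build ribosomes and those that encode the cytosolic ribosomal proteins differed in opposite directions, by small amounts. Of the 66 genes of the small subunit processome and 40S assembly 31 were higher and 3 lower, with a median of 0.29, and of the 72 genes of 60S assembly 25 were higher and 0 lower, with a median of 0.20. UTP9, a processome subunit, read 9.49 and 9.60 in TFM, against 8.57 and 8.88 in isopropanol at 1 h, 8.50 at 2 h and 8.82 and 8.84 at 4 h (0.82 ± 0.10, adjusted p = 0.000265). LCP5 and DHR2, of the same assembly, rose by 0.75 ± 0.12 and 0.76 ± 0.14 (adjusted p = 0.00105 and 0.00246). IPI1 and RSA4, which act on the 60S precursor, rose by 0.76 ± 0.0967 and 0.69 ± 0.10 (adjusted p = 0.000282 and 0.000734). The 3 processome list members that fell were KRR1 (-0.50 ± 0.12), NOP56 (-0.44 ± 0.11) and NOP58 (-0.27 ± 0.0692), of which the last pair are core proteins of the box C/D snoRNPs (adjusted p = 0.012, 0.0105 and 0.0139).

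The counts of the assembly lists depended on which arrays were used. Without TFM 2 h replicate 1 there were 12 higher and 2 lower processome genes and 9 higher and 0 lower 60S assembly genes, the 60S median then being 0.116. Without replicate 2 there were 19 and 0, and 13 and 0. Against the single isopropanol 2 h array the counts were 31 and 1, and 23 and 0, and the medians were 0.385 and 0.29. With the dimmest 25% of probe sets left out, which kept 37 of 66 and 47 of 72 genes, the medians were 0.229 and 0.14. For RNA polymerases I and III, which transcribe ribosomal and transfer RNA, 10 of 35 genes were higher and 3 lower, with a median of 0.07. That median was 0.009 with the dimmest 25% of probe sets left out, which kept 20 of the 35. RRN11 and RRN3, initiation factors of polymerase I, rose by 0.66 ± 0.12 and 0.57 ± 0.0957 (adjusted p = 0.00225 and 0.00158), and BDP1, of the polymerase III factor TFIIIB, fell by 0.44 ± 0.0607 (adjusted p = 0.00048).

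Of the 53 small subunit ribosomal protein genes 0 were higher and 12 lower, with a median of -0.17, and of the 75 large subunit genes 1 was higher and 19 lower, with a median of -0.145. RPL15B read 11.31 and 11.37 in TFM, against 11.87 and 11.93 in isopropanol at 1 h, 11.92 at 2 h and 12.14 and 11.83 at 4 h, and fell by 0.60 ± 0.0813 (adjusted p = 0.000418), while its near-identical copy RPL15A was not called at -0.11 (adjusted p = 0.229). RPS0B read 13.38 and 12.82 in TFM, against 13.29 and 13.46 in isopropanol at 1 h, 13.82 at 2 h and 13.81 and 13.97 at 4 h, and was called (-0.57 ± 0.20, adjusted p = 0.0478) with TFM 2 h replicate 1 inside the isopropanol range. Without replicate 2 it was at -0.29 (adjusted p = 0.438), and its call was also lost without the isopropanol 2 h array or either 4 h array (-0.54 to -0.50). The gene pairs of ribosomal proteins share much of their sequence, and the array can mix their signals. The 1 member that rose was RPL22B (0.20 ± 0.0623, adjusted p = 0.0306), against -0.30 ± 0.0736 for RPL22A (adjusted p = 0.0109). These counts rested on few arrays. Without TFM 2 h replicate 2, the array with the 3′ minus 5′ signal of 1.49, there were 0 lower small subunit and 3 lower large subunit genes, and the small subunit median was -0.104. Leaving out TFM 2 h replicate 1 gave 11 and 13, the isopropanol 2 h array gave 3 and 14, 4 h replicate 1 gave 2 and 13, and 4 h replicate 2 gave 6 and 16. Without both isopropanol 4 h arrays there were 3 and 13, without both 1 h arrays 20 and 24, and against the single array 1 and 7. With the 3′ minus 5′ signal as a covariate the counts were 14 and 18.

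**Figure D3:**
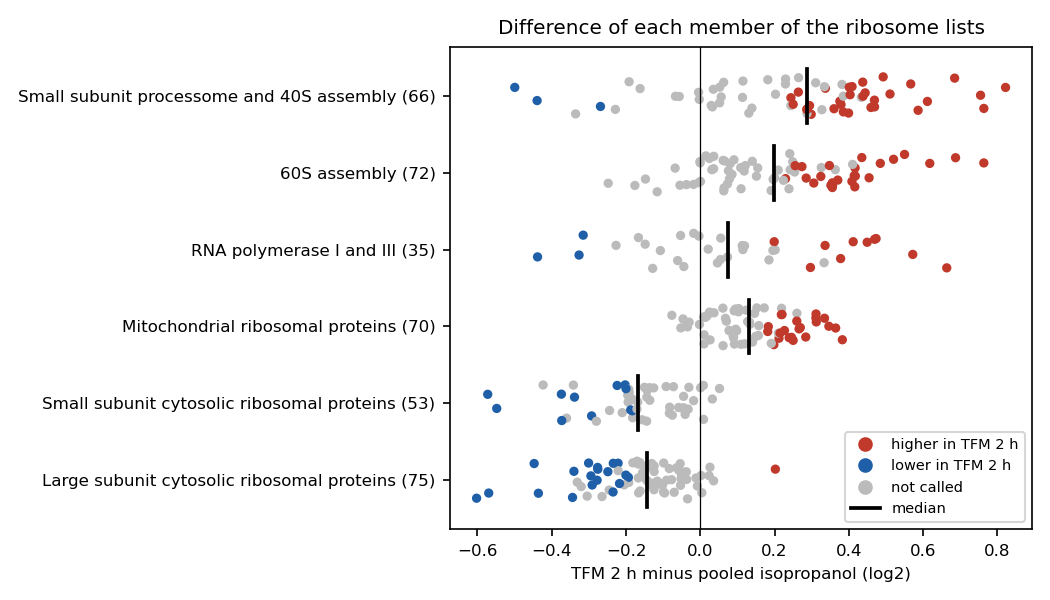
Difference between TFM 2 h and pooled isopropanol (log2, horizontal) of each member of 6 ribosome lists, with the number of measured members in brackets, called genes in red (higher) or blue (lower), and a black bar at each list median. The medians of the processome and 60S assembly lists lie at 0.29 and 0.20, and those of the small and large subunit ribosomal proteins at -0.17 and -0.145.

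Mitochondrial ribosomal protein genes, which serve the translation of mitochondrially encoded subunits, went with the assembly factors: 22 of 70 were higher and 0 lower, with a median of 0.13. RSM24 had the largest difference, at 0.38 ± 0.0735 (adjusted p = 0.00318). Against the single array 2 were higher and 0 lower, while the median was 0.135. Without TFM 2 h replicate 1 and without replicate 2 the counts were 15 and 10 higher, with 0 lower in both.

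Biosynthetic genes were mostly on the lower side. Of 59 amino acid biosynthesis genes, many of them targets of the activator Gcn4, 4 were higher and 22 lower, with a median of -0.18. ASN1, an asparagine synthetase, read 12.06 and 12.47 in TFM, against 13.15 and 13.27 in isopropanol at 1 h, 13.19 at 2 h and 13.19 and 13.13 at 4 h, and fell by 0.92 ± 0.0896 (adjusted p = 5.73e-05). Its paralog ASN2 fell by 0.53 ± 0.0612, ARG4 of arginine synthesis by 0.72 ± 0.14 and SER2 of serine synthesis by 0.75 ± 0.15 (adjusted p = 0.000172, 0.00287 and 0.00468). The 4 that rose were HOM3, which encodes aspartate kinase (0.44 ± 0.12), ARG2 (0.37 ± 0.0603), the regulator gene LYS14 (0.35 ± 0.0878) and CPA1 (0.16 ± 0.0533), with adjusted p = 0.0154, 0.00131, 0.012 and 0.041. Against the single array 1 was higher and 12 lower, and without TFM 2 h replicate 2 there were 2 and 13.

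Of 25 genes of purine and one-carbon synthesis 1 was higher and 11 lower, with a median of -0.19. ADE17, which makes the purine precursor IMP, read 11.50 and 11.29 in TFM, against 12.02 and 12.13 in isopropanol at 1 h, 12.23 at 2 h and 12.19 and 12.15 at 4 h, and fell by 0.75 ± 0.076 (adjusted p = 7.86e-05). ADE2, GCV1 and ADE1 fell by 0.50 ± 0.0699, 0.47 ± 0.0743 and 0.44 ± 0.0719 (adjusted p = 0.00048, 0.00109 and 0.00144). The 1 that rose was BAS1, the Myb-type activator of the ADE genes, which read 10.85 and 10.96 in TFM, against 9.86 and 10.08 in isopropanol at 1 h, 9.69 at 2 h and 9.87 and 9.94 at 4 h (1.02 ± 0.12, adjusted p = 0.000199). Against the single array 1 was higher and 6 lower. The counts were likewise 1 and 6 without TFM 2 h replicate 2.

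Of 27 ergosterol genes 3 were higher and 12 lower, with a median of -0.19. ERG2 and ERG26 fell by 0.67 ± 0.0694 and 0.65 ± 0.0896 (adjusted p = 9.18e-05 and 0.000452), and ERG13, which makes HMG-CoA, by 0.57 ± 0.14 (adjusted p = 0.0119). UPC2, the sterol-sensing activator of the pathway, read 8.28 and 8.52 in TFM, against 9.29 and 9.44 in isopropanol at 1 h, 9.33 at 2 h and 9.14 and 9.23 at 4 h, and fell by 0.89 ± 0.11 (adjusted p = 0.000268), while its paralog ECM22 rose by 0.23 ± 0.0654 (adjusted p = 0.0206). ERG29, needed at the methylsterol oxidation step, went the other way from most of the list. It read 11.53 and 11.35 in TFM, against 10.41 and 10.45 in isopropanol at 1 h, 10.42 at 2 h and 10.34 and 10.38 at 4 h, and rose by 1.04 ± 0.0662 (adjusted p = 2.85e-06). Its isopropanol arrays lay close together, and both TFM arrays were well above them. The ergosterol counts were 2 and 7 against the single array, and 2 and 6 with a median of -0.12 without TFM 2 h replicate 2.

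Nitrogen and sulfur genes were divided. Of 34 genes subject to nitrogen catabolite repression 3 were higher and 8 lower, with a median of -0.015. Leaving out TFM 2 h replicate 1 gave 3 and 3, replicate 2 gave 1 and 4, isopropanol 4 h replicate 1 gave 1 and 6, and either 1 h replicate 2 or 4 h replicate 2 gave 2 and 5, while the single array gave 1 and 5. MEP1, an ammonium permease, read 11.51 and 11.78 in TFM, against 12.54 and 12.55 in isopropanol at 1 h, 12.75 at 2 h and 12.58 and 12.61 at 4 h, and fell by 0.97 ± 0.0813 (adjusted p = 2.25e-05). GLN1, glutamine synthetase, and GAP1, the general amino acid permease, fell by 0.60 ± 0.0793 and 0.60 ± 0.15 (adjusted p = 0.000373 and 0.0132), with TFM 2 h replicate 2 inside the isopropanol range for GAP1. CPS1, a vacuolar carboxypeptidase, fell by 0.97 ± 0.10 (adjusted p = 9.64e-05). Of 32 sulfur genes 9 were higher and 6 lower, with a median of -0.05. Those rises depended on both TFM arrays, since 2 were higher and 6 lower without replicate 1 and 1 and 2 without replicate 2, where the median was 0.078. Against the single array 3 were higher and 3 lower. STR3 rose by 0.67 ± 0.14, whereas MET14, adenylylsulfate kinase, fell by 0.79 ± 0.11 and SUL1, a sulfate permease, by 0.84 ± 0.23 (adjusted p = 0.0061, 0.00041 and 0.0189). Of these 3, MET14 alone passed against the single array (-0.997 ± 0.14, adjusted p = 0.00377).

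**Figure D4:**
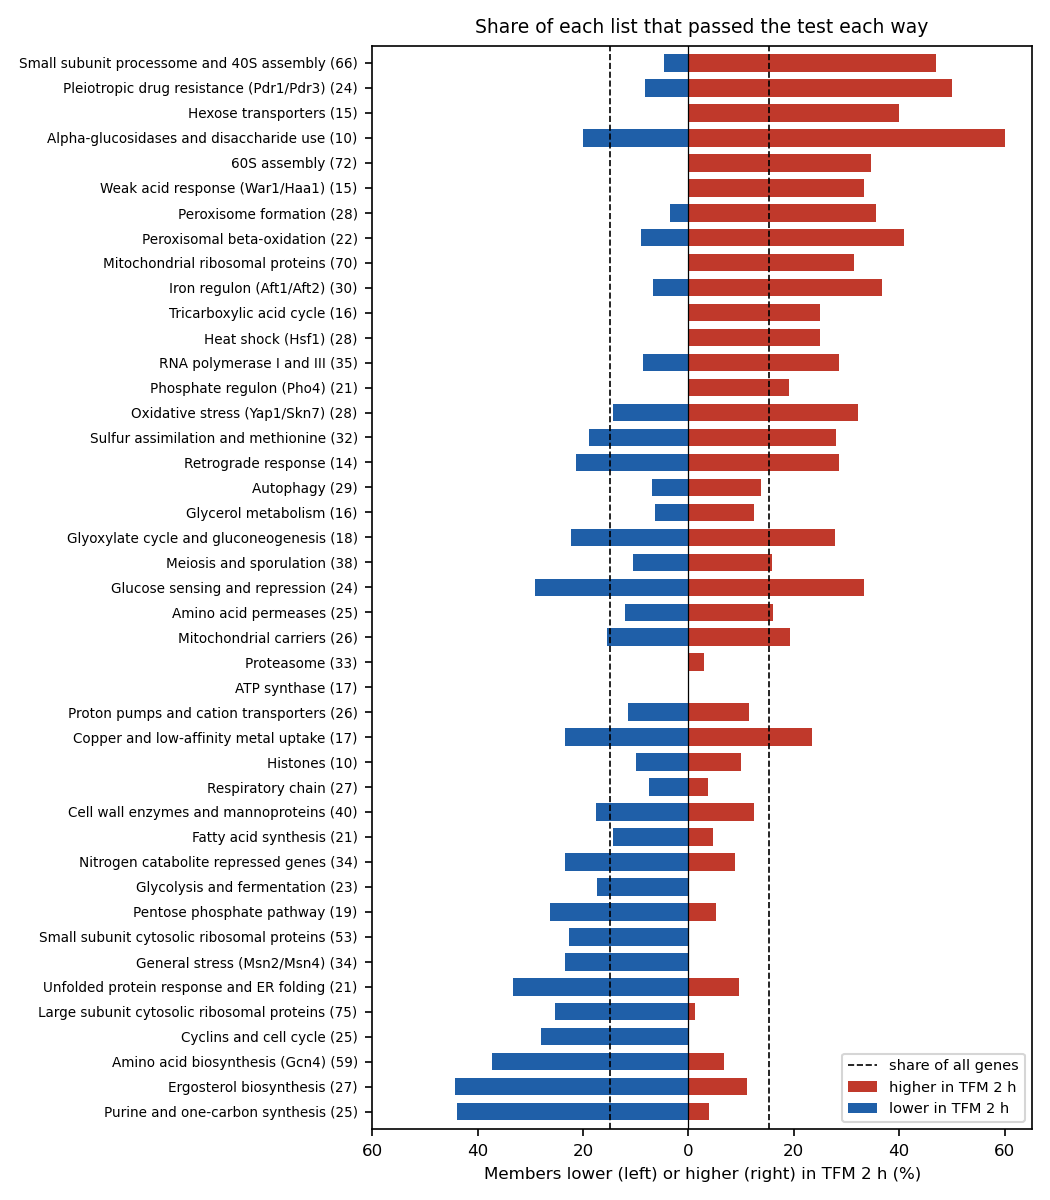
Percent of the measured members of each list of at least 10 genes (number in brackets) that were called higher in TFM 2 h (red, right) or lower (blue, left) than in pooled isopropanol, ordered by the difference of the shares, with dashed lines at the shares of all genes (15.3% and 14.9%). The processome list has 31 of 66 members to the right, the ergosterol list has 12 of 27 to the left, and ATP synthase has no bar.

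Genes of the respiratory machinery differed little. Of 17 ATP synthase genes 0 were called either way, and their differences lay between -0.08 and 0.05. Of 27 respiratory chain genes 1 was higher and 2 lower, with a median of -0.04. The ATP synthase and respiratory chain lists had median isopropanol levels of 14.19 and 14.12, where the highest value of the series was 15.23. Whether larger differences could show at such levels was not tested. NDE1, the external NADH dehydrogenase, was at 0.16 ± 0.0503 (adjusted p = 0.0326), COX5B, the hypoxic form of a cytochrome oxidase subunit, at -0.29 ± 0.10 (adjusted p = 0.0464), and CYC7, the minor cytochrome c, at -0.57 ± 0.15 (adjusted p = 0.0151). Of these, none passed against the single array, where 0 of the 27 were called. Of 26 genes of mitochondrial carriers 5 were higher and 4 lower, or 19.2% and 15.4% beside 15.3% and 14.9% of all genes. The carriers had 2 and 1 without TFM 2 h replicate 2, 5 and 2 without isopropanol 1 h replicate 2 or the 2 h array, 5 and 1 without 4 h replicate 1, and 4 and 1 against the single array. PIC2, a copper and phosphate carrier, and DIC1, the dicarboxylate carrier, rose by 0.56 ± 0.0539 and 0.44 ± 0.0797 (adjusted p = 5.14e-05 and 0.00224). AAC1, the minor ADP/ATP carrier, rose by 0.31 ± 0.0627 (adjusted p = 0.00421).

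Of the 16 tricarboxylic acid cycle genes 4 were higher and 0 lower, with a median of 0.045. Only 2 were called without TFM 2 h replicate 1, TFM 2 h replicate 2, isopropanol 1 h replicate 2 or the 2 h array, and 1 against the single array. CIT3, a mitochondrial citrate and methylcitrate synthase, read 13.88 and 13.64 in TFM, against 13.05 and 13.17 in isopropanol at 1 h, 13.05 at 2 h and 13.13 and 13.17 at 4 h (0.65 ± 0.0672, adjusted p = 9.18e-05). PDH1, the methylcitrate dehydratase, is outside this list and rose by 0.39 ± 0.0513 (adjusted p = 0.000372). ICL2, the methylisocitrate lyase of the same route, was looked up after these values were seen, and it rose by 0.96 ± 0.0574 (adjusted p = 1.62e-06). Thus genes for 3 enzymes of propionate breakdown stood higher, though they were picked in part after their values were seen. For each of them both TFM arrays lay beyond all 5 isopropanol arrays, which was so for 41.7% of all genes. The retrograde response list, whose genes rise when mitochondria fail, had 4 of 14 higher and 3 lower. It had 2 and 2 without either TFM array, 2 and 3 without isopropanol 1 h replicate 2 or the 2 h array, and 1 and 2 against the single array. Its marker CIT2, the peroxisomal citrate synthase, was at -0.15 ± 0.0458 (adjusted p = 0.0274). DLD3 read 10.13 and 10.18 in TFM, against 10.99 and 11.02 in isopropanol at 1 h, 10.99 at 2 h and 11.08 and 11.02 at 4 h, and fell by 0.87 ± 0.0792 (adjusted p = 3.74e-05), whereas it read 12.32 and 12.28 in TFM at 4 h. UCC1, the F-box protein that marks Cit2 for destruction, rose by 1.01 ± 0.0584 (adjusted p = 1.36e-06).

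Genes of the proton pumps and other cation transporters of the plasma membrane and vacuole were called at shares near those of all genes. Of 26 such genes 3 were higher and 3 lower, or 11.5% each way beside 15.3% and 14.9% of all genes, with a median of -0.05. Without TFM 2 h replicate 2 there were 2 and 0, 3 and 5 without isopropanol 1 h replicate 1, and against the single array 2 and 1. PMA1, the main proton pump, was not called at 0.11 (adjusted p = 0.131), and its minor relative PMA2 rose by 0.58 ± 0.13 (adjusted p = 0.00618). The other two that rose were TRK2, a potassium transporter (0.36 ± 0.0724), and VNX1, a vacuolar exchanger of sodium or potassium for protons (0.24 ± 0.057), with adjusted p = 0.00402 and 0.0088. The vacuolar ATPase subunit genes VMA7 and VMA8 fell by 0.47 ± 0.10 and 0.34 ± 0.0857 (adjusted p = 0.00628 and 0.0127). Glycolysis and fermentation, the route by which yeast makes ATP without respiration, had 0 of 23 genes higher and 4 lower, between -0.16 for PFK1 and -0.27 for ENO2, and a list median of -0.02. The 4 falls were 1 without TFM 2 h replicate 2 or against the single array, and 2 without isopropanol 1 h replicate 2, the 2 h array or either 4 h array. HXK2, the main glucose kinase, was not called at -0.10 (adjusted p = 0.312). The glycolysis list had a median isopropanol level of 14.54, also near the top of the signal range.

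Iron genes were more often higher. Of the 30 genes of the iron regulon 11 were higher and 2 lower, with a median of 0.15. The iron counts were 7 and 1 without TFM 2 h replicate 2, and against the single array 8 and 1. AFT2, one of its 2 activators, read 10.89 and 10.70 in TFM, against 9.78 and 9.82 in isopropanol at 1 h, 9.81 at 2 h and 9.63 and 9.78 at 4 h (1.03 ± 0.0729, adjusted p = 6.73e-06). FRE4 and FRE2, metalloreductases, rose by 0.91 ± 0.15 and 0.65 ± 0.12 (adjusted p = 0.00116 and 0.00258), and ISU1, the scaffold of iron-sulfur cluster assembly, by 0.59 ± 0.0669 (adjusted p = 0.000156). Another metalloreductase gene was among the 2 lower members, at -0.18 ± 0.0578. DRE2, of cytosolic iron-sulfur cluster assembly, read 13.06 and 12.91 in TFM, against 11.73 and 11.9997 in isopropanol at 1 h, 12.001 at 2 h and 11.91 and 11.69 at 4 h (1.12 ± 0.0998, adjusted p = 3.19e-05). Of 17 genes of copper and low-affinity metal uptake 4 were higher and 4 lower. Leaving out TFM 2 h replicate 1 gave 2 and 1, replicate 2 gave 1 and 1, the isopropanol 2 h array gave 2 and 2, and 4 h replicate 2 gave 3 and 1, while the single array gave 0 and 3. SMF2, a manganese transporter, and CUP2, the copper-sensing activator, rose by 0.38 ± 0.0756 and 0.19 ± 0.0562 (adjusted p = 0.00408 and 0.0262), as did the metallothionein gene CUP1-1, which has an identical copy, by 0.21 ± 0.0574 (adjusted p = 0.0193). CTR1, the copper transporter, and FET4, a low-affinity metal transporter, fell by 0.45 ± 0.14 and 0.71 ± 0.13 (adjusted p = 0.0347 and 0.00244). For CTR1 the highest isopropanol array was the one at 2 h, so the difference against it alone was -0.83 ± 0.12, and against the 2 time zero arrays it was 0.065 (adjusted p = 0.815), of the other sign. The labels of those 2 samples name isopropanol as the agent although the design places them before treatment, so what they received is unclear. Of 21 phosphate regulon genes 4 were higher and 0 lower. For the phosphate list, leaving out TFM 2 h replicate 1 gave 2 and 1, replicate 2 gave 1 and 0, and isopropanol 1 h replicate 1 gave 4 and 1. SPL2, a regulator of phosphate uptake, read 13.13 and 13.07 in TFM, against 12.15 and 12.17 in isopropanol at 1 h, 11.92 at 2 h and 12.08 and 12.24 at 4 h (0.98 ± 0.0851, adjusted p = 2.68e-05), while PHO84 and PHO5 were not called at 0.21 and 0.23 (adjusted p = 0.18 and 0.182).

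The largest fall was that of IME1, the master regulator of entry into meiosis. It read 10.94 and 10.55 in TFM, against 11.98 and 12.004 in isopropanol at 1 h, 12.16 at 2 h and 11.99 and 12.004 at 4 h, and fell by 1.28 ± 0.11 (adjusted p = 2.25e-05). Of the isopropanol arrays 4 lay within hundredths of a unit of each other, and both TFM arrays were more than 1 unit below the lowest. BY4741 is haploid and does not sporulate. Of 38 genes of meiosis and sporulation 6 were higher and 4 lower, with a median of 0.09. These are 15.8% and 10.5%, near the 15.3% and 14.9% of all genes. Leaving out TFM 2 h replicate 1 gave 3 and 5, replicate 2 gave 1 and 3, and the isopropanol 2 h array gave 3 and 4. With the dimmest 25% of probe sets left out, which kept 6 of the 38 genes, the median was -0.191. SPR3, a septin of sporulating cells, fell by 0.83 ± 0.15 (adjusted p = 0.00224), and the spore wall gene OSW2, outside the list, by 1.01 ± 0.11 (adjusted p = 0.00011). REC102, a recombination gene, rose by 0.78 ± 0.17 (adjusted p = 0.00669), with the TFM arrays at 9.26 and 10.03.

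The other falls of 2-fold or more had varied roles. YDL241W, of unknown function, read 9.34 and 8.96 in TFM, against 10.16 and 10.22 in isopropanol at 1 h, 10.54 at 2 h and 10.32 and 10.50 at 4 h (-1.20 ± 0.14, adjusted p = 0.000207). HMS1, a transcription factor of filamentous growth, read 8.32 and 8.57, against 9.21 and 9.26 in isopropanol at 1 h, 9.72 at 2 h and 9.72 and 9.69 at 4 h (-1.08 ± 0.16, adjusted p = 0.000871). In both genes the TFM arrays were clear of the isopropanol arrays. RRG8, needed to keep the mitochondrial genome, fell by 1.11 ± 0.21 (adjusted p = 0.00259). UTR2, a cell wall transglycosylase, fell by 1.07 ± 0.17 (adjusted p = 0.00136) and RCN1, which regulates calcineurin, by 1.02 ± 0.0989 (adjusted p = 5.3e-05). Just under 2-fold were YAP6, a bZIP factor (-0.95 ± 0.0902), YEL073C (-0.94 ± 0.14) and VPS36, an ESCRT subunit (-0.90 ± 0.14), with adjusted p = 5.14e-05, 0.000866 and 0.000912. Of 25 cyclin and cell cycle genes 0 were higher and 7 lower, with a median of -0.10. There were 0 and 3 without TFM 2 h replicate 2, 1 and 8 or 2 and 7 without isopropanol 1 h replicate 1 or 2, and 1 and 3 against the single array. The median was 0.061 with the dimmest 25% of probe sets left out, which kept 14 of the 25. CLB2, the main mitotic cyclin, was at -0.64 ± 0.15 and CLN3, the first G1 cyclin, at -0.54 ± 0.0891 (adjusted p = 0.00807 and 0.00152).

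Stress genes showed no common direction. Of 34 general stress genes, targets of Msn2 and Msn4, 0 were higher and 8 lower, with a median of -0.08, and SOL4 fell by 0.67 ± 0.0776 (adjusted p = 0.000178). The 8 general stress falls were 5 without TFM 2 h replicate 1, 3 without replicate 2 and 4 against the single array, and 1 gene was higher without isopropanol 1 h replicate 2. Of 28 heat shock genes 7 were higher and 0 lower, with a median of 0.18, and SSA3, a cytosolic Hsp70, rose by 0.61 ± 0.071 (adjusted p = 0.000172). Against the single array 2 were higher and 1 lower, with a median of 0.089. Without TFM 2 h replicate 2 there were 2 and 0 with a median of 0.108, and 7 and 1 with a median of 0.119 without isopropanol 4 h replicate 2. Of 28 oxidative stress genes 9 were higher and 4 lower. These were 6 and 1 without TFM 2 h replicate 2 and 4 and 2 against the single array. OYE3, an NADPH oxidoreductase, rose by 0.84 ± 0.0969 (adjusted p = 0.000172), and YAP1, the regulator, by 0.33 ± 0.0669 (adjusted p = 0.00443), while TSA2, a peroxiredoxin, fell by 0.46 ± 0.13 (adjusted p = 0.0176). Of 21 genes of endoplasmic reticulum folding 2 were higher and 7 lower. None of the 7 falls passed against the single array, which gave 2 and 0. Leaving out TFM 2 h replicate 2 gave 1 and 3, isopropanol 1 h replicate 2 gave 2 and 3, the 2 h array gave 2 and 4, and 4 h replicate 2 gave 3 and 3. ERO1, the oxidase that drives disulfide formation, rose by 0.91 ± 0.10 (adjusted p = 0.000158), and the disulfide isomerases MPD1 and EUG1 fell by 0.42 ± 0.0696 and 0.25 ± 0.0815 (adjusted p = 0.00155 and 0.0384). Of 33 proteasome genes the only one called was RPN4, the activator of the others, at 0.49 ± 0.0873 (adjusted p = 0.00209).

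The choice of control mattered for some genes. Of the 157 genes named here that were called against the pooled arrays, 119 were also called against the single array. The other 38 had the same sign against it and did not pass. They were AIR1, CPA1, CUP1-1, CUP2, DAK2, ECM22, HOM3, HXT7, LYS14, NDE1, PDR1, PEX7, PMA2, RGT1, RPL22B, RSM24, SMF2, STR3, SUC2, YAP1 and YLR297W, which were higher, and CIT2, COX5B, CYC7, ERG13, EUG1, MF(ALPHA)1, MPD1, NOP56, NOP58, NRG1, PCD1, PFK1, RPL22A, RPS0B, SER2, SUL1 and VMA8, which were lower. Of the 770 genes called against the single isopropanol 2 h array 66 were not called against the pooled arrays. Among these the largest fall was in GPD2, which encodes glycerol 3-phosphate dehydrogenase. It read 11.40 and 10.59 in TFM, against 10.83 and 10.94 in isopropanol at 1 h, 12.68 at 2 h and 11.42 and 11.85 at 4 h. The 2 h array was the highest of the 5, and the difference was -1.68 ± 0.34 against it (adjusted p = 0.0138) but -0.55 ± 0.42 against all 5 (adjusted p = 0.354). TFM 2 h replicate 1 lay inside the isopropanol range and replicate 2 below it. FRE7, a metalloreductase, read 8.81 and 8.59 in TFM, against 8.52 and 8.70 in isopropanol at 1 h, 9.66 at 2 h and 8.85 and 9.50 at 4 h (-0.96 ± 0.24 and -0.35 ± 0.26 in turn, adjusted p = 0.0283 and 0.348). On the higher side were SPB1 and UTP23, of ribosome assembly, at 0.79 ± 0.15 and 0.70 ± 0.12 against the single array (adjusted p = 0.0104 and 0.00762) and 0.41 ± 0.15 and 0.33 ± 0.13 against all 5 (adjusted p = 0.0574 and 0.0765).

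**Figure D5:**
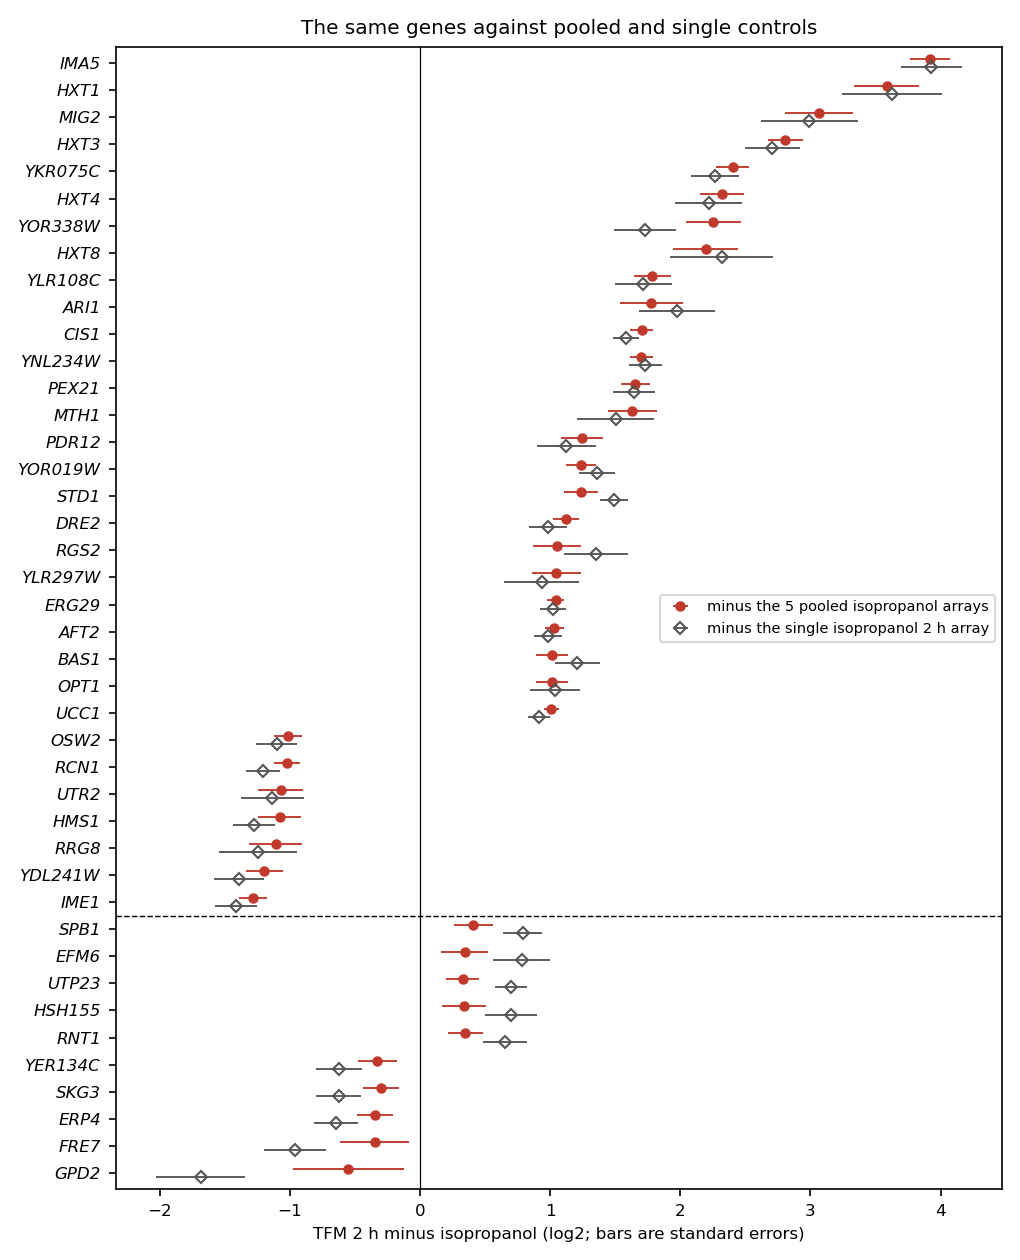
Difference between TFM 2 h and isopropanol (log2, with standard errors) against the 5 pooled arrays (red circles) and against the single 2 h array (open diamonds), for the 32 genes changed at least 2-fold above the dashed line and, below it, the 5 largest differences each way that passed only against the single array. Above the line the 2 values have the same sign in all 32 genes. GPD2, in the bottom row, has -0.55 against the pooled arrays and -1.68 against the single one.

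A leading gene was among the 5 called genes whose 2 TFM arrays stood furthest apart, a number fixed by the naming rule. The 5 called genes with the widest gap were AIR1 (7.74 and 8.96), DAK2 (5.97 and 7.13), HXT8 (9.09 and 8.01), YLR297W (11.60 and 10.73) and REC102 (9.26 and 10.03). AIR1 read 7.85 and 7.93 in isopropanol at 1 h, 7.23 at 2 h and 7.28 and 7.39 at 4 h and DAK2 6.17 and 5.81 in isopropanol at 1 h, 5.57 at 2 h and 5.71 and 5.90 at 4 h, so in both of them 1 TFM array lay among the isopropanol arrays although the fit called the gene (adjusted p = 0.0463 and 0.0478). Neither was called against the single array (adjusted p = 0.0713 and 0.112), and without TFM 2 h replicate 2 their differences were 0.21 and 0.14 (adjusted p = 0.623 and 0.685).

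Seen beside the other TFM times, with no test made here, the leading genes fell into different courses. HXT1 read 11.86 and 12.01 after 1 h of TFM and 14.15 and 13.94 after 4 h, and MIG2 read 8.83 and 8.86 and then 11.72 and 11.52, so both were highest at 4 h. IMA5 read 10.44 and 10.46 at 1 h and 11.74 and 12.08 at 4 h, so its 2 h arrays were the highest. UTP9 read 9.08 and 9.11 at 1 h and 9.17 and 9.01 at 4 h, and ERG29 read 10.97 and 11.10 and 10.90 and 11.04, again with the 2 h arrays highest. MEP1 read 11.88 and 11.97 at 1 h and 12.60 and 12.61 at 4 h, where it was back within its isopropanol range.

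Called genes were found at all levels of expression. When genes were put into 4 classes of equal size by their mean isopropanol level, 18.3% of the dimmest class were called higher and 11.5% lower, while 10.2% of the brightest class were called higher and 15.6% lower. In the middle classes, from dim to bright, the shares were 15.6% and 17.0% higher, and 16.0% and 16.4% lower. The median gene length was 1542 bp for genes called higher, 1072.5 bp for those called lower and 1236 bp for all genes. Median isopropanol levels were 10.43 for the processome list and 10.68 for the 60S assembly list. They were 13.93 and 14.08 for the small and large subunit ribosomal proteins. Whether level or length bears on the opposite directions of these lists was not tested.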

How the data were processed

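RNA of BY4741 yeast was measured on 13 Affymetrix-type arrays. The deposited values are log2 RMA signals per probe set, made by the authors with background correction, quantile normalization and summarization per the submitters' processing notes, which name RMA; its version and settings are not given in the sources used here. Of 5900 probe sets 184 were controls, 5498 had 1 gene and 218 had none. Gene names came from the array annotation, matched by gene ID to the RefSeq R64 gene table (12 symbols were replaced by newer ones). Where a gene had more than 1 probe set (47 genes), the brightest on average over the 13 arrays was used. This gave 5449 genes, of which 72 had a mean at or under background (5.94). No filter was applied.

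The fit was limma 3.58.1 in R 4.3.3 with 5 group means on all 13 arrays (TFM 2 h, the pooled isopropanol arrays and 3 others) and default eBayes, with 8 residual and 3.42 prior degrees of freedom. The check against the single isopropanol 2 h array and the F test over isopropanol times used 7 group means. The spread of the single array was taken to equal that of the other groups. Tests are two-sided. The number of arrays limits the precision. On simulated data of this layout (5449 genes, 200 changed) the fit recovered 80.6, 98.5 and 100% of genes changed by 0.5, 1 and 2 on the log2 scale. Of its calls there 6.06% were false. The simulation drew independent normal noise with the same spread in every group. In the data 30.1% of genes were called, and the TFM 2 h replicates differed most of all pairs. The simulated rates therefore do not describe the calls made here. Plots were made in Python 3.11.15 (matplotlib 3.10.9).

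The arrays, the 46 gene lists and the settings tried (control, pooling, arrays left out, normalization, variance model, dim probe sets, probe sets, replicate block, RNA integrity) were chosen with earlier results of these data known. Lists are described by counts and medians, without a test. The rule for named genes took the 15 largest rises and falls without overlap between the groups, up to 3 members each way per list by smallest adjusted p, the 5 largest each way called only against the single array, the 5 called genes with TFM arrays furthest apart, and the strain markers. Not all are printed, and other genes named were chosen after their values were seen. Promoter sequences were not used here.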

Additional observations from a re-analysis of the deposited data

Results flagged for a closer look

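In 11 of the 178 genes named here 1 isopropanol array stood apart from the other 4 by Dixon's test, which flags about 1 gene in 20 by chance. Isopropanol 2 h replicate 1 was the highest for IME1 at 12.16 (others 11.98 to 12.004) and the lowest for UTP23 at 9.93 (10.35 to 10.48), which passed only against this array. Isopropanol 1 h replicate 2 was high for CPS1 at 12.93 (12.78 to 12.79), and 1 h replicate 1 for RGT1 at 12.74 (12.56 to 12.58). Isopropanol 4 h replicate 1 was low for AFT2 at 9.63 (9.78 to 9.82) and for RGT2 at 9.1 (9.4 to 9.46), and high for NOP56 at 12.68 (12.46 to 12.5) and VMA8 at 13.1 (12.82 to 12.9). Isopropanol 4 h replicate 2 was low for IMA3 at 10.44 (10.95 to 11.14) and CUP1-1 at 14.7 (14.81 to 14.85), and high for MET17 at 5.8 (5.47 to 5.54), below background.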

How the results depend on the processing

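The counts of 831 higher and 810 lower genes stayed within 1.5 times in every setting except 2. Against the single isopropanol 2 h array they were 452 and 318, and without TFM 2 h replicate 2 they were 410 and 373. Over the 7 arrays left out 1 at a time they ranged between 410 and 865 higher and between 373 and 857 lower. The 32 genes changed at least 2-fold were 29 to 45 over the arrays left out in turn. They were 20 with the dimmest 25% of probe sets left out, a setting in which the dim genes were not tested. The 770 calls against the single array were 382 without TFM 2 h replicate 2, 893 without replicate 1, 513 with the 3′ minus 5′ signal as a covariate, and 487 with the replicate number as a block. The F test over isopropanol times gave 0 calls in every setting. With the replicate block the pooled comparison gave 752 higher and 735 lower genes, and 6 of the 157 called genes named here lost their call. Replicate numbers were not taken as a pairing, because the deviations of same-numbered arrays correlated at -0.222, -0.129 and 0.266 between the groups. Of the 157, 102 kept their call in all settings that tested them. Genes in the dimmest 25% of probe sets were not tested in the setting that left these out. The call was lost by 37 without TFM 2 h replicate 2, by 21 without replicate 1 and by 38 against the single array. Each of these comparisons rests on fewer arrays, and TFM 2 h replicate 2 had a 3′ minus 5′ signal of 1.49 against 1.18 in replicate 1. The cause of these losses was not tested. CTR1 changed sign, at 0.065 against the time zero arrays, whose treatment the labels leave unclear. List medians near 0 could change sign with 1 array left out, as for the nitrogen list (0.016 without TFM 2 h replicate 1) and the respiratory chain (0.026 without replicate 2). With 2 TFM arrays the median standard error of 0.0841 limits what small differences can show.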
